A study of Mus musculus with 2 samples.

Results

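The cells described here are those of embryonic day 7 (E7) mouse embryos that carried transcripts of regulators of blood and endothelium. They were chosen on measured values: 156 of 1655 cells passed the rule, 74 of 791 in the control library and 82 of 864 in the *Yap1* cKO library. A cell entered with at least 5 unique molecular identifiers (UMIs, counted transcripts) of *Tal1*, *Lmo2*, *Etv2* and *Fli1* together. Trophoblast was kept out with fewer than 5 UMIs of *Elf5*, *Wnt7b* and *Esrrb*, and visceral endoderm with under 200 CPM (UMIs per 1000000 UMIs of the same cells) of *Ttr*, *Afp*, *Apoa1*, *Rbp4* and *Apoa4*. Both exclusions left 1045 embryonic cells, so the gated cells were 14.9% of them, and the remaining 889 embryonic cells served for comparison. These 12 genes were left out of every count, list and named gene below. The 4 gate genes are given on their own, as descriptions of the cells chosen.

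The study deleted *Yap1*, the transcriptional co-activator at the end of the Hippo pathway, with Sox2-Cre, a driver that acts in epiblast-derived cells but spares trophoblast and visceral endoderm. One pool of 3 *Yap1* cKO embryos (Sox2-Cre with both *Yap1* alleles floxed) and one pool of 4 control littermates were each measured in 1 droplet library, so there is no replicate. The sources differ on the controls: Sox2-Cre carriers with 1 floxed allele in the design and the single-cell methods, floxed animals without Cre in the mouse methods, and wild type in the labels. Yolk sacs of the embryos were used for genotyping, and whether this took extraembryonic mesoderm from the pools is not stated. The labels give the embryos as female, while 52.7% of the gated control cells (39 of 74) and 36.6% of the gated *Yap1* cKO cells (30 of 82) were Y-bearing, that is, had at least 2 UMIs of 4 Y-linked genes and none of *Xist*. The other gated cells were mostly Xist-bearing, with at least 2 *Xist* UMIs and no Y-linked UMI (33 of 74 and 47 of 82). The gated cells had a median of 81718 control and 93800 *Yap1* cKO UMIs, from 17169 to 324147, and the other embryonic cells 72775 and 78141. Over all barcodes, 2 were found in both libraries, and none of them was a gated cell.

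Blood and endothelium arise together from mesoderm that leaves the primitive streak during gastrulation. ETV2, an ETS factor, is required to start both lineages and acts upstream of TAL1, a basic helix-loop-helix factor, and of its bridging partner LMO2, while FLI1 is an ETS factor that keeps endothelial and blood programs active. KDR, the main receptor of VEGF-A, marks mesoderm with this potential, and the first blood cells of the embryo, the primitive erythrocytes, form in the yolk sac.

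The gate was met mostly through *Etv2*. *Etv2* was seen in 150 of 156 gated cells (96.2%), *Lmo2* in 103 (66.0%), *Fli1* in 73 (46.8%) and *Tal1* in 61 (39.1%). In 33 cells *Etv2* was the only gate gene seen, whereas all 4 genes were seen in 46 cells. The median gated cell had 9.5 gate UMIs and the highest 277. At the limit itself, the 37 cells with 5 gate UMIs had 25.6 CPM of *Kdr* and 263 CPM of *Utf1*, an epiblast gene, and the 53 excluded cells with 4 gate UMIs had 15.1 and 197 CPM. The 11 cells with 6 gate UMIs had 49.9 and 76.4 CPM.

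The gated cells were parted by their UMIs of *Tal1*, *Lmo2* and *Fli1*, at limits set after the data were seen. A set of 89 cells (39 control, 50 *Yap1* cKO) had 0 to 4 such UMIs and did not pass without *Etv2*, here called *Etv2*-gated cells. Some of them had fewer than 5 *Etv2* UMIs and passed only with *Etv2* and the other gate genes added together. A further 24 cells (13 and 11) had 5 to 19, here called intermediate cells. The last 43 cells (22 and 21) had at least 20 and are called *Tal1*/*Lmo2*/*Fli1*-rich cells, or rich cells. *Kdr* and *Tek*, which the gate did not use, check the name. *Kdr* was at 14.4 CPM in other embryonic cells, 65.5 in *Etv2*-gated, 161 in intermediate and 259.8 in rich cells. *Tek*, the angiopoietin receptor of endothelium, was at 0.448, 0.383, 0.546 and 36.0 CPM in the same order. In *Foxf1*/*Hand1* mesoderm outside the gate *Kdr* was at 81.3 CPM, above the *Etv2*-gated cells. The name of blood and endothelial progenitors thus held on both markers for the 43 rich cells. It did not hold for the 89 *Etv2*-gated cells, and the gated cells are called here by the gate.

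**Figure D1:**
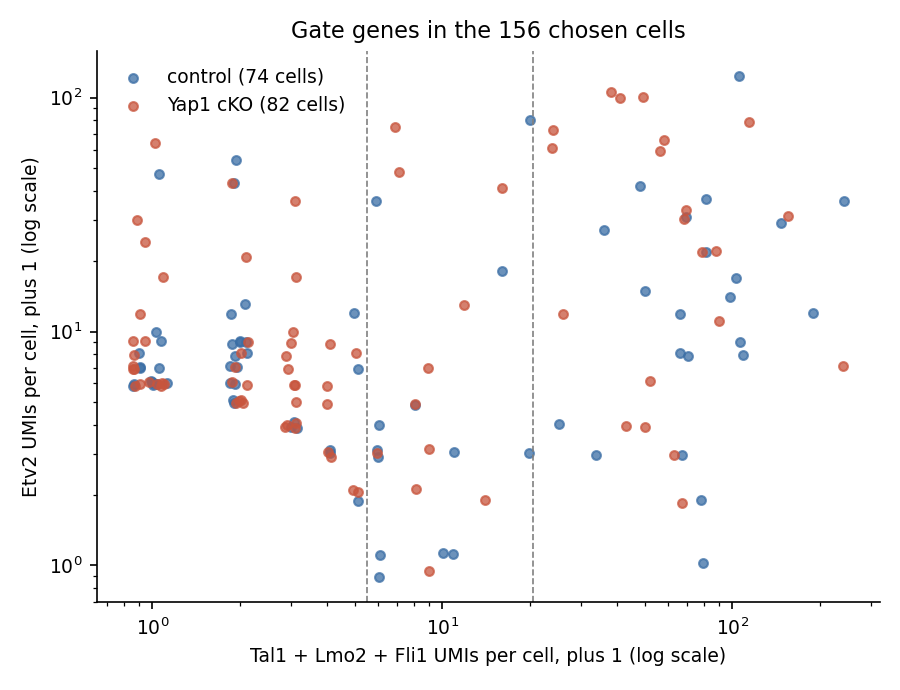
UMIs per cell of *Etv2* (vertical axis) against the summed UMIs of *Tal1*, *Lmo2* and *Fli1* (horizontal axis), both plus 1 on log axes with a small spread added, for the 156 gated cells, 1 point per cell coloured by library. Dashed lines mark the limits between the 3 sets. Many cells lie at low *Tal1*, *Lmo2* and *Fli1* with *Etv2* at or above 5 UMIs, and both libraries have cells over the whole range.

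Each gate gene was also examined in cells chosen on the other 3 alone. Held out in this way, *Tal1* was at 48.0 CPM inside against 0.527 CPM outside, a ratio of 91.0 (95% interval 65.9 to 129). *Lmo2* was 35.5 times as high (31.4 to 40.3), *Fli1* 38.6 times (32.0 to 47.0) and *Etv2* 14.1 times (13.1 to 15.1). *Etv2* was the least selective of them, since it was seen in 58.0% of the embryonic cells that did not pass the gate on the other 3 genes. All intervals given (95%, exact) reflect only the error of counting, not differences between embryos or libraries.

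*Hapln1* ranked first among the genes named by rule. It encodes a link protein that stabilizes hyaluronan and proteoglycans in the extracellular matrix. In gated cells it was at 67.6 CPM (control) and 26.2 CPM (*Yap1* cKO), against 0.382 and 0.176 CPM in other embryonic cells, ratios of 177 (102 to 334) and 149 (71.2 to 374). Most of it lay in rich cells, at 209 CPM (control) and 119 CPM (*Yap1* cKO), and it was at 1.05 CPM in *Etv2*-gated cells over both libraries.

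A gene was counted as higher where its ratio was at least 2 in both libraries, among genes with at least 50 UMIs, and as lower where it was at most 0.5 in both, among genes with at least 20 UMIs expected in the gated cells. Of 14532 genes, 440 (3.03%) were higher, and of 12726 genes, 339 (2.66%) were lower. These are the shares to set beside each count by list below. The median log2 ratio of all genes was -0.05. Because the members were chosen on their transcripts, these are descriptions and no test was made.

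Vascular receptors and surface proteins were higher in many cases. Of 27 endothelial genes measured, 14 were higher and none was lower, with a median log2 ratio of 1.47. *Kdr* was at 136 CPM (control) and 118 CPM (*Yap1* cKO) gated cells, against 15.9 and 13.0 in other cells, ratios of 8.58 (7.70 to 9.56) and 9.09 (8.18 to 10.1). *Tek* was at 13.8 and 6.54 CPM against 0.618 and 0.302 CPM, and *Flt1*, the VEGF-binding receptor that acts largely as a decoy, at 74.6 and 48.8 CPM against 23.6 and 16.9 CPM. *Eng*, a co-receptor of BMP9 and TGF-beta, was at 9.89 and 6.43 CPM against 0.559 and 0.881 CPM. *Icam2*, an adhesion molecule of endothelium, had 42 UMIs in gated cells and none in other embryonic cells. *Egfl7*, an extracellular matrix protein secreted by endothelium, was abundant outside too (ratios of 3.36 and 2.03). *Cdh5*, which encodes the VE-cadherin of endothelial junctions, remained sparse, with 52 UMIs in 18 gated cells, while 98 UMIs outside came from 4 control cells. *Tie1*, an orphan receptor of endothelium, had 4 UMIs.

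The difference lay mostly in the rich cells. In these, 24 of the 27 endothelial genes were at least 2 times as high as in other embryonic cells, against 4 of 27 in *Etv2*-gated cells, and the median log2 ratios were 3.12 and 0.15. Over all genes, with both libraries pooled, 7.37% were at least 2 times as high in rich cells and 2.44% in *Etv2*-gated cells. *Esam*, an adhesion molecule of endothelial junctions, was at 25.3 CPM in rich cells against 0.192 CPM in *Etv2*-gated and 0.339 CPM in other cells. *Kdr* differed from this pattern, since it was 4.57 times as high (4.14 to 5.03) in *Etv2*-gated cells as in other embryonic cells, although below its level in *Foxf1*/*Hand1* mesoderm (65.5 against 81.3 CPM).

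Endothelial transcription factors followed the same division. Of 18 measured, 7 were higher and none lower, with median log2 ratios of 0.14 in *Etv2*-gated and 1.16 in rich cells. The SOXF factors *Sox7* and *Sox18*, which act in early vascular specification, were at 50.3 and 21.5 CPM in rich cells against 0.479 and 0.0958 CPM in *Etv2*-gated cells. *Sox7* was at 19.5 and 9.60 CPM in gated cells of control and *Yap1* cKO and at 0.912 and 0.0504 CPM in other cells. *Erg*, an ETS factor of endothelium, was at 3.0 and 2.96 CPM against 0.147 and 0.0504 CPM. *Rhoj*, a small GTPase of endothelial cells, was at 24.3 and 22.7 CPM against 0.735 and 0.453 CPM.

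Promoters of *Tek* and *Rhoj* are shown because they hold letters that blood and endothelial factors are known to bind. Both genes were highest in rich cells, and *Rhoj* was also at 14.2 CPM in intermediate cells, against 82.5 CPM in rich cells. The promoters of *Kdr*, *Hapln1* and *Gata2*, also looked up, hold 0 matches to the letters searched. The sequences are the RefSeq promoters on GRCm38.p6, from 250 bases before to 50 bases after the gene start, at chr4:94739039-94739338 and chr12:75308063-75308362, both on the plus strand. Capitals mark the letters AGATAA, read by GATA factors, in *Tek* and AGGAAG, read by ETS factors, in *Rhoj*, each searched on both strands.
Tek: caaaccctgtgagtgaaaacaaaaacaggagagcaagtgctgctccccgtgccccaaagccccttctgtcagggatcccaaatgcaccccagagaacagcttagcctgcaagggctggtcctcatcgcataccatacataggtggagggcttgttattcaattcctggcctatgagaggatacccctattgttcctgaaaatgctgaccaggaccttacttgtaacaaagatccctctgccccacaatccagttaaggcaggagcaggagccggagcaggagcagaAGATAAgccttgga
Rhoj: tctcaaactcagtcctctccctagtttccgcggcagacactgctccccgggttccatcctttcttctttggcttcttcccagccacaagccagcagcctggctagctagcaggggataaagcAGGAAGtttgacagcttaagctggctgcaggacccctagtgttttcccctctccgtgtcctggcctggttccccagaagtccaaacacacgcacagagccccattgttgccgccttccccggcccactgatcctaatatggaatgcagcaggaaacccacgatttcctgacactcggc
Over all 27025 promoters of this length, 11.4% hold AGATAA and 35.1% hold AGGAAG, and 16.1% hold CAGCTG, an E-box of the kind TAL1 binds. Of the 20 genes named by rule as highest, 11 had a promoter in the table, of which 0 hold the GATA letters, 5 the ETS letters and 2 the E-box. A match of letters is a description of the sequence and not a measured site.

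Blood transcription factors were also higher, with 8 of 15 measured, none lower and a median log2 ratio of 1.30. With no visceral endoderm limit, the ratio of *Runx1* was 2.36 in place of 7.30, that of *Gata2* 9.21 in place of 18.3 and that of *Sox7* 3.72 in place of 30.4. *Gata2*, a factor of blood progenitors, was at 37.3 CPM (control) and 18.9 CPM (*Yap1* cKO) gated cells, against 2.18 and 0.806 CPM in other cells. *Runx1*, required for definitive blood and expressed early in yolk sac mesoderm, was at 63.7 and 28.4 CPM against 7.06 and 4.81 CPM. *Cbfa2t3*, a co-repressor of TAL1 complexes, was at 13.9 and 7.97 CPM against 0.50 and 0.302 CPM, and *Gata1*, the factor of red cells, at 6.44 and 3.68 CPM against 0.559 and 0.504 CPM. In rich cells the median log2 ratio was 2.79 and in *Etv2*-gated cells -0.29. *Bcl11a*, *Mecom* and *Myb*, which belong to later or definitive blood, were not higher, with *Myb* at 8.84 and 9.60 CPM inside and 20.6 and 16.1 CPM outside.

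Transcripts of maturing blood were almost absent. Of 9 erythroid genes measured, none was higher and none lower. *Hbb-bh1*, an embryonic beta-like globin, had 7 UMIs, all in 1 control rich cell, and *Hbb-y*, *Hba-x* and *Slc4a1* had none. *Hbb-bs*, another beta globin gene, had 22 UMIs in the gated cells. *Klf1*, the erythroid activator of globin genes, had 8 UMIs in 7 cells. Of 17 iron and heme genes, none was higher and 2 were lower. Among megakaryocyte and macrophage genes, 3 of 5 measured were higher, but most of their UMIs came from 1 control cell of 32017 UMIs, which held 35 of 39 *Ptprc*, 65 of 66 *Tyrobp*, 108 of 134 *Fcer1g* and 105 of 115 *Cd52* UMIs of all gated cells. This cell entered by 9 *Fli1* UMIs, had no *Tal1*, *Lmo2*, *Etv2*, *Kdr* or *Lin28a* UMI, and was counted as intermediate. Without it, 426 genes were higher and 344 lower.

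**Figure D2:**
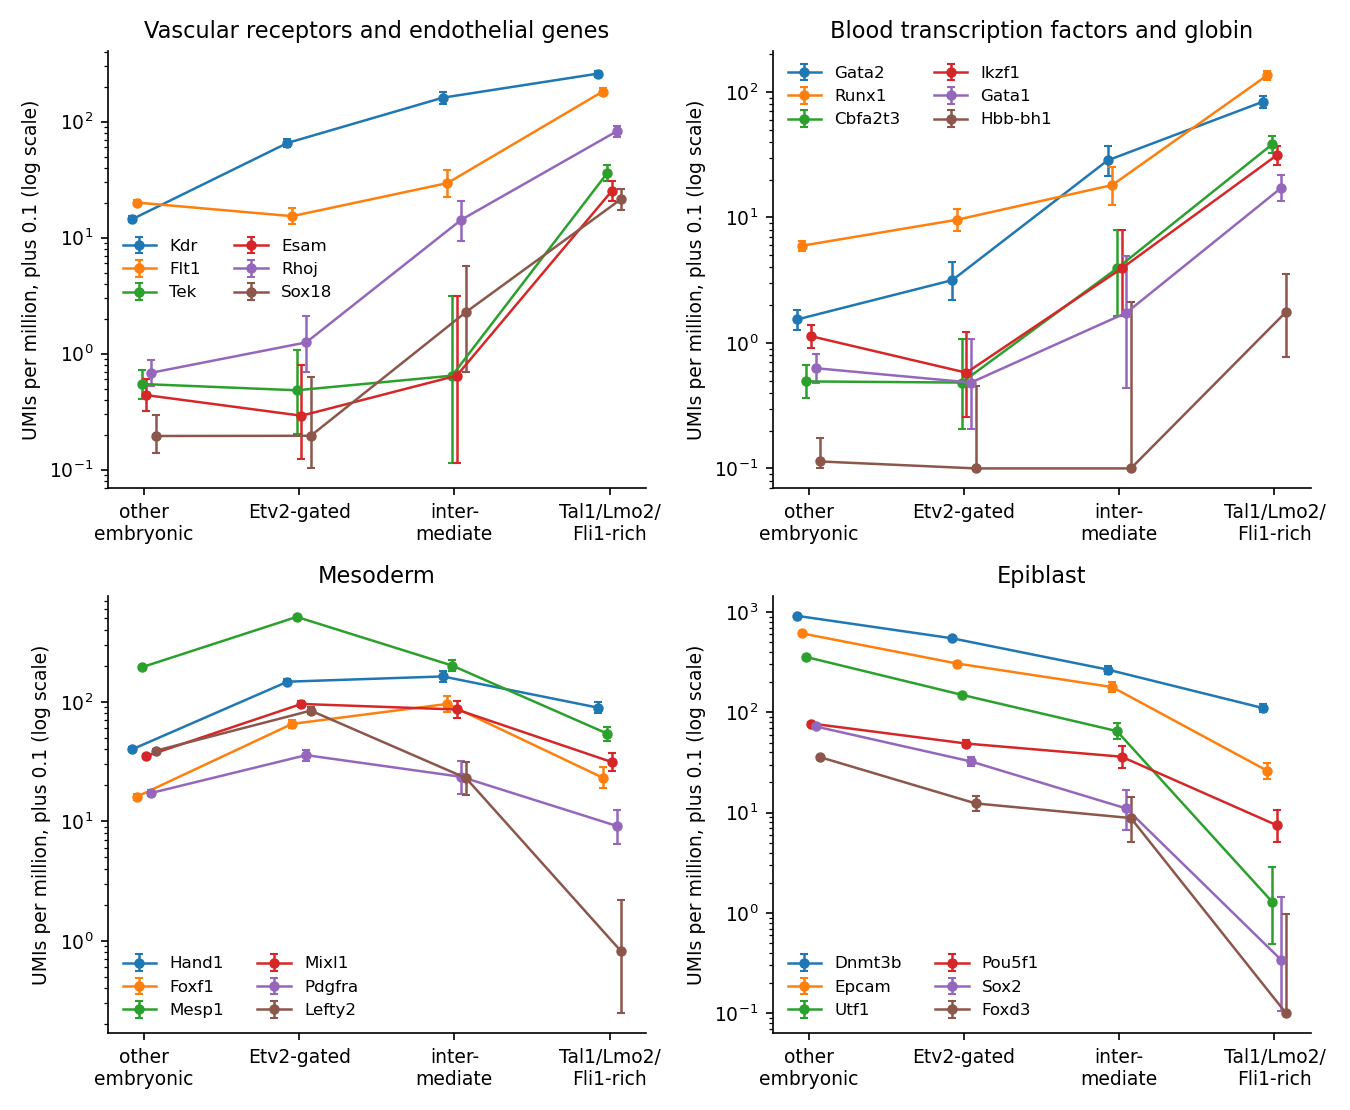
Level in CPM plus 0.1, on a log axis, of genes the gate did not use in other embryonic, *Etv2*-gated, intermediate and *Tal1*/*Lmo2*/*Fli1*-rich cells, with bars for exact 95% counting intervals. *Kdr* is higher in each set than in the one before it, *Tek* is near its outside level until the rich cells, and *Mesp1* is highest in *Etv2*-gated cells.

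Shares of cells with a UMI were compared at equal depth. After thinning every cell to 38000 UMIs, which left out 3 gated cells, *Kdr* was seen in 73.2% of gated cells (78.8% before thinning), in 100% of rich and 60.7% of *Etv2*-gated cells. It was seen in 14.5% of other embryonic cells, and in 18.7% of trophoblast and 1.39% of visceral endoderm cells, which had median depths of 90019 and 72807 UMIs against 87014 in gated cells. *Tek* was seen in 18.3% of gated cells (23.7% before thinning) and 61.9% of rich cells, against 2.44%, 0.360% and 0% of those comparison cells. A count of 0 in 288 thinned visceral endoderm cells allows up to 3 counts, a share of 1.04% (Clopper-Pearson upper limit 1.27%). This limits only cells with a UMI at that depth and not cells that express *Tek*, since 1.25% held a *Tek* UMI before thinning. *Cdh5* was seen in 16.7% of rich and 5.23% of gated cells (11.5% of gated cells before thinning), against 0.464% of other embryonic cells. *Gata1* was seen in 11.1% of gated cells (13.5% before thinning), in 35.7% of rich and in 1.28% of other embryonic cells, and in 20.5% of trophoblast cells. *Runx1* was seen in 43.8% of gated, 73.8% of rich, 20.6% of other embryonic and 76.0% of visceral endoderm cells (62.8% of gated and 86.2% of visceral endoderm cells before thinning). *Sox7*, also a gene of extraembryonic endoderm, was seen in 23.5% of gated, 0.348% of other embryonic and 34.7% of visceral endoderm cells (32.7% of gated and 52.5% of visceral endoderm cells before thinning).

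Blood and endothelial transcripts lay in the same cell in some of the rich cells. Per cell, UMIs of *Gata1*, *Klf1*, *Gfi1b* and the embryonic globins were summed as blood UMIs, and those of *Cdh5*, *Pecam1*, *Tie1*, *Tek* and *Esam* as endothelial UMIs. At least 3 of both were found in 13 gated cells, 3 or more endothelial UMIs alone in 23, blood UMIs alone in 4 and neither in 116. All 13 cells with both were rich cells, as were 21 of the 23 with endothelial UMIs alone, and 7 rich cells had neither. The limit matters, as 10 gated cells had 2 to 4 blood UMIs and 28 had 2 to 4 endothelial UMIs, and after thinning the counts were 4, 17, 4 and 128 of 153 cells. *Gfi1b*, a repressor of the red cell and platelet lineages, was seen in 14 gated cells, all of them rich.

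**Figure D3:**
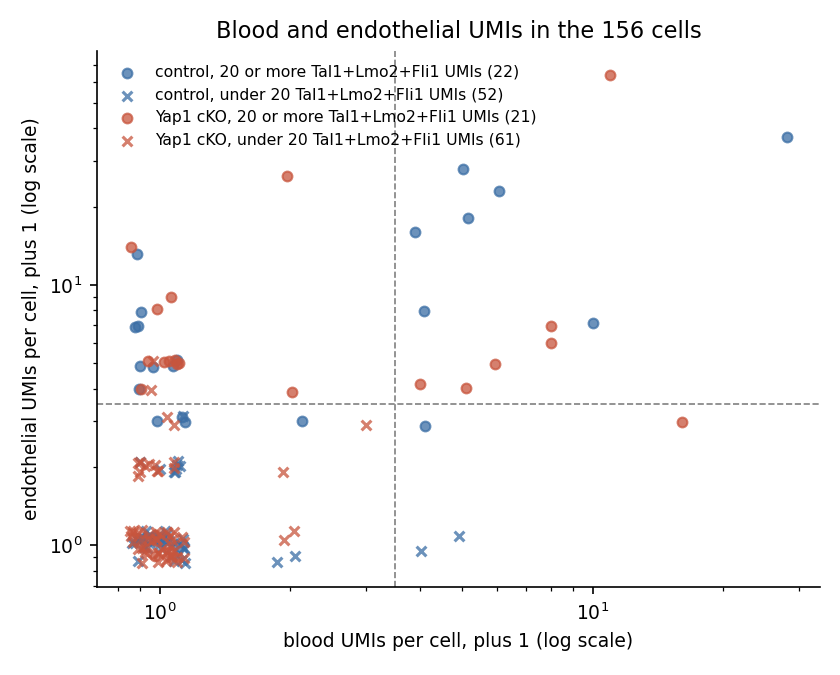
Endothelial UMIs (*Cdh5*, *Pecam1*, *Tie1*, *Tek*, *Esam*; vertical axis) against blood UMIs (*Gata1*, *Klf1*, *Gfi1b*, *Hbb-bh1*, *Hbb-y*, *Hba-x*; horizontal axis) in each of the 156 gated cells. The 13 cells past 3 UMIs on both axes are all *Tal1*/*Lmo2*/*Fli1*-rich, and the dashed lines mark that limit. Axes show UMIs plus 1 on a log scale, with a small spread added.

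Signalling genes differed by pathway, where 3.03% of all genes were higher and 2.66% lower in gated cells. Of 12 VEGF pathway genes, 6 were higher: the receptors *Kdr*, *Flt1* and *Flt4*, the co-receptors *Nrp1* and *Nrp2*, and the ligand *Vegfc*. *Nrp1* was at 62.5 CPM (control) and 56.6 CPM (*Yap1* cKO) against 14.5 and 11.2 CPM. Of 19 BMP pathway genes, 6 were higher, namely the ligands *Bmp2*, *Bmp4* and *Bmp5* and the targets *Msx1*, *Msx2* and *Smad6*. *Bmp2* was at 75.6 and 76.5 CPM in rich cells and at 6.59 and 5.16 CPM in other embryonic cells, whereas *Bmp5* was at 9.67 CPM in *Etv2*-gated cells, above its 4.82 and 5.19 CPM in rich cells. Of 14 Notch pathway genes 1 was higher, and of 10 hedgehog pathway genes none, with median log2 ratios of 0.06 and 0.13. *Amot*, an angiomotin that binds YAP1 and is known from endothelial migration, was at 206 and 142 CPM against 64.5 and 44.7 CPM, and with *Tead4* and *Vgll4* it made 3 of 23 Hippo pathway genes that were higher.

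Mesoderm genes were shared by the 3 sets in different measure. Of 25 genes of lateral and extraembryonic mesoderm, 15 were higher, with median log2 ratios of 1.24 in *Etv2*-gated and 1.01 in rich cells. The number higher depended on the processing and went from 0 to 17 under the alternatives. *Hand1* and *Foxf1*, factors of extraembryonic and lateral mesoderm, were at 147 and 65.3 CPM in *Etv2*-gated cells, 89.4 and 23.1 CPM in rich cells, and 40.0 and 16.0 CPM in other cells. *Mesp1*, the factor of nascent mesoderm leaving the streak, was at 514 CPM in *Etv2*-gated, 201 CPM in intermediate and 54.1 CPM in rich cells, and at 195 CPM outside. *Lefty2*, a Nodal inhibitor of nascent mesoderm, was at 84.4 CPM in *Etv2*-gated and 0.715 CPM in rich cells. Of the 20 streak and nascent mesoderm genes, 12 were at or below 0.5 times the outside level in rich cells and 1 in *Etv2*-gated cells, where 16.6% and 2.95% of all genes were. *Fgf3*, a growth factor of the streak and of early mesoderm, went the other way, at 371 and 242 CPM in rich cells of control and *Yap1* cKO against 27.8 and 25.1 CPM in other cells.

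Part of the epiblast genes were lower than in other embryonic cells, most of which lie outside the mesoderm gates. Of 23 measured, 9 were lower and none higher, with a median log2 ratio of -1.18, and 20 of 23 were at or below 0.5 times the outside level in rich cells against 6 in *Etv2*-gated cells (16.6% and 2.95% of all genes). Against mesoderm cells alone (*Foxf1*/*Hand1* and Mesp) none of them was lower, and *Utf1* was then 4.02 times as high in the gated cells. *Utf1*, a chromatin factor of pluripotent cells, was at 356 CPM in other embryonic cells, 149.5 in *Etv2*-gated and 1.19 in rich cells, and *Sox2* at 72.2, 32.3 and 0.238 CPM. *Dnmt3b*, the de novo DNA methyltransferase, was at 916, 547 and 110.4 CPM. Of 17 genes of the transition from epithelium to mesenchyme, 5 were higher (*Fn1*, *Vim*, *Zeb1*, *Zeb2* and *Cdh11*, genes of mesenchymal cells), 3 were lower (*Epcam*, *Cdh1* and *Cldn6*, genes of epithelial adhesion and junctions) and 9 were neither. *Epcam* was at 613 CPM outside, 307 CPM in *Etv2*-gated and 26.0 CPM in rich cells. *Fn1*, which encodes fibronectin, was at 342 CPM (control) and 279 CPM (*Yap1* cKO) gated cells against 108 and 96.0 CPM.

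Imprinted growth genes were higher in 5 of 12 cases, a result that depends on the visceral endoderm limit for some. *Igf2*, a fetal growth factor, was at 81.2 CPM (control) and 46.1 CPM (*Yap1* cKO) against 9.67 and 5.09 CPM, its neighbour *H19* at 140.3 and 69.1 CPM against 22.7 and 11.5 CPM, and *Mest* at 344 and 174 CPM against 76.7 and 57.9 CPM. *Igf2* was at 177 CPM in visceral endoderm and 165 CPM in trophoblast cells, above the gated cells. With no visceral endoderm limit the ratio of *Igf2* was 1.22 in place of 8.37 and that of *H19* 0.351 in place of 5.89. Among caudal and Hox genes 3 of 11 were higher, all in the Hoxb cluster, with *Hoxb2* at 30.1 and 21.8 CPM against 4.56 and 3.35 CPM. Cell cycle genes were close to the outside level, with 1 of 18 higher and a median log2 ratio of -0.02. Over all genes, 3.03% were higher.

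Markers of other cell types were mostly low. Over all genes, 3.03% were higher and 2.66% lower. Of 9 trophoblast markers outside the gate 2 were higher, with a summed level of 189 CPM (control) and 231 CPM (*Yap1* cKO) gated cells against 906 and 803 CPM in trophoblast cells. *Eomes*, also a streak gene, was the most abundant of them, and *Prl3d1*, *Tpbpa* and *Rhox9* had no UMI. Of 13 visceral endoderm markers outside the gate 2 were higher, summed to 419 and 337 CPM against 33066 and 31427 CPM in visceral endoderm cells, with *Apoe* the most abundant and *Hnf4a* and *Fgb* at 0. *Apoe*, a lipid carrier that many tissues make, was at 544 and 525 CPM in rich cells against 102 and 84.6 CPM in other embryonic cells. None of 9 germ cell markers was higher, with *Ifitm3* the most abundant, and of 9 node and endoderm markers none was higher and 2 were lower. Of 8 maternal decidua and blood markers none was higher, and their summed level was 29.4 CPM (control) and 4.80 CPM (*Yap1* cKO) gated cells, with *Cd52*, nearly all from the cell above, the most abundant. Their part in the results above was not tested. A doublet caller marked 1 of the gated cells, which was kept.

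**Figure D4:**
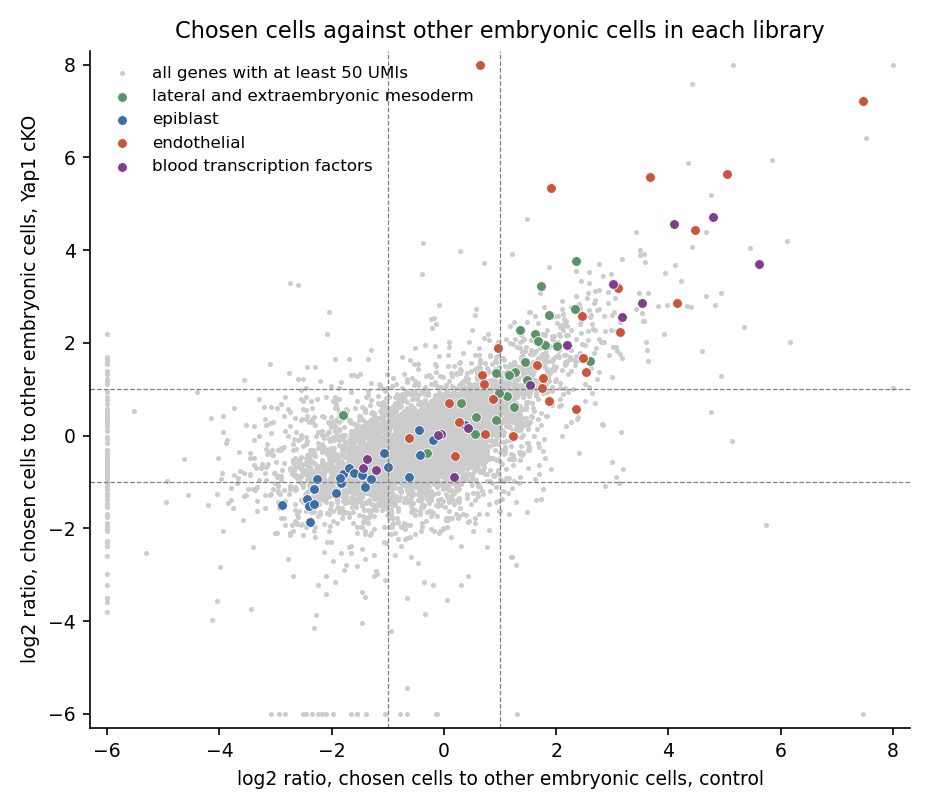
Log2 ratio of gated to other embryonic cells in the control library (horizontal axis) against the same ratio in the *Yap1* cKO library (vertical axis), 1 point per gene with at least 50 UMIs, drawn at the limits -6 and 8 where it lies beyond them. Gate genes are left out and dashed lines mark a ratio of 2 and of 0.5. Most endothelial genes and blood transcription factors lie past 0 in both libraries, and most epiblast genes below 0.

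The 20 genes named by rule as highest, seen in at least 25% of the gated cells, were *Hapln1*, *Rhoj*, *Sox7*, *Gata2*, *Gadd45g*, *Dusp2*, *Adgra2*, *Exoc3l*, *Tnnt3*, *Rab3il1*, *Kdr*, *Igf2*, *Stard8*, *Eng*, *Pwwp2b*, *Abi3*, *Pdgfb*, *Kcnq5*, *Lama4* and *Phlda1*. The smaller of the ratios in the 2 libraries went from 149 for *Hapln1* down to 6.63 for *Phlda1*. *Gadd45g*, a stress and growth arrest gene, was at 137 CPM (control) and 62.5 CPM (*Yap1* cKO) against 6.38 and 3.73 CPM, and *Adgra2*, a receptor for WNT7 signals in brain vessels, at 12.9 and 6.43 CPM against 1.15 and 0.403 CPM. *Pdgfb*, the growth factor by which endothelium recruits pericytes, was at 9.44 and 4.90 CPM against 0.470 and 0.705 CPM. The 10 lowest were *Dnajc6*, *Ovol2*, *Cdh9*, *Enpp3*, *Slc7a3*, *Ocln*, *Grin2b*, *Car10*, *Rgl3* and *Rspo1*. *Slc7a3*, a cationic amino acid transporter, was at 18.1 and 22 CPM against 94.7 and 79.7 CPM and at 0.715 CPM in rich cells, but 2.05 times as high in gated cells as in mesoderm cells alone. *Ovol2*, a repressor of mesenchymal genes, was at 1.5 and 2.25 CPM against 8.20 and 8.76 CPM and had no UMI in rich cells.

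Compared with mesoderm of another kind alone, 120 *Foxf1*/*Hand1* mesoderm cells outside the gate, part of the difference was gone. *Kdr* was then 1.55 times as high in gated cells (1.42 to 1.68), *Igf2* 1.30 times and *H19* 1.09 times (0.999 to 1.18). *Tek* (21.2 times, 8.11 to 78.7), *Hapln1* (25.6 times, 15.4 to 46.0) and *Rhoj* (23.2 times, 12.1 to 51.1) kept ratios above 20. *Hand1* and *Foxf1*, which chose those mesoderm cells, are not compared. *Nrp1* was at 0.820 times and *Bmp4* at 0.672 times the mesoderm level, so both were lower than there while higher than in embryonic cells at large.

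*Yap1* itself checks the genotype labels. In gated cells it had 166 UMIs in control (24.9 CPM, 64 of 74 cells) and 18 UMIs in *Yap1* cKO (1.84 CPM, 10 of 82 cells), a ratio of 0.0739 (0.0428 to 0.121). The ratio was 0.0527 in other embryonic cells, 0.711 in trophoblast and 0.796 in visceral endoderm cells. In rich cells it was 0.182 (0.0740 to 0.392). *Yap1* lies on chromosome 9 (GRCm38, 7931999 to 8004596, minus strand). *Wwtr1*, which encodes the related co-activator TAZ, was at 23.2 and 19.1 CPM.

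Gated cells were 14.4% of embryonic cells in control (11.5% to 17.7%) and 15.4% in *Yap1* cKO (12.5% to 18.8%). Rich cells were 4.28% (2.70% to 6.41%) and 3.95% (2.46% to 5.98%). The intervals overlapped in both cases. With 1 library per genotype, no test was made, and genotype, embryos and library cannot be told apart.

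Of 10676 genes with at least 50 UMIs in gated cells, 171 (1.60%) were at least 2 times as high in *Yap1* cKO and 140 (1.31%) at most 0.5 times as high. Some Hippo pathway genes and known YAP targets were among the latter. Of 22 Hippo genes 5 were at most 0.5 times as high, *Yap1* itself among them, and of 11 YAP targets 4, and the lists share *Amotl2*, *Lats2*, *Ajuba* and *Ptpn14*. *Amotl2*, an angiomotin, was at 35.6 CPM (control) and 11.5 CPM (*Yap1* cKO), a ratio of 0.324 (0.256 to 0.407). *Ccn1*, which encodes a secreted matrix protein and YAP target, was at 14.1 and 3.47 CPM (0.247, 0.161 to 0.369). *Lats2*, the kinase that phosphorylates YAP1, was at 19.5 and 6.54 CPM (0.336, 0.245 to 0.456), and *Ajuba* and *Wwc2*, both regulators of LATS kinases, had ratios of 0.403 and 0.415. In other embryonic cells the ratios of *Amotl2*, *Ccn1*, *Lats2*, *Ajuba* and *Wwc2* were 0.371, 0.270, 0.373, 0.413 and 0.569. The lower values of these genes were thus not particular to the gated cells.

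By the rule on size, the named genes that were higher in *Yap1* cKO were *Pcsk2os1*, *Dqx1*, *Chst1*, *Tmem178b*, *Tfap2c* and *Bmerb1*, and those that were lower were *Yap1*, *Hotairm1*, *Parm1*, *Ccn1*, *Tafa2* and *Ahnak*. *Dqx1* was at 15.3 CPM (control) and 75.7 CPM (*Yap1* cKO) (4.95, 4.02 to 6.15), with 700 of its 843 UMIs in *Etv2*-gated cells, and in rich cells its ratio was 0.745 (0.518 to 1.07). In rich cells *Pcsk2os1* and *Bmerb1* had no UMI, and *Chst1*, *Tfap2c* and *Tmem178b* had 3, 6 and 10 UMIs. Embryonic cells outside all these gates held more *Pcsk2os1*, *Chst1* and *Bmerb1* (12.6, 15.4 and 31.6 CPM) than gated cells (4.07, 4.13 and 6.74 CPM). The epiblast genes *Dnmt3b* and *Nanog* had ratios of 1.68 (1.58 to 1.79) and 1.89 (1.45 to 2.48) in *Etv2*-gated cells. For *Dnmt3b* in rich cells it was 0.967 (0.803 to 1.17). A link between these values was not tested. *Tfap2c*, a factor of trophoblast and germ cells, was at 1.35 and 5.82 CPM and at 146 CPM in trophoblast cells. *Hotairm1*, a noncoding RNA of the Hoxa cluster, was at 8.54 and 1.84 CPM (0.215, 0.119 to 0.371). Without the control cell with leukocyte transcripts, 169 genes were higher and 130 lower.

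Some blood and endothelial genes were lower in *Yap1* cKO gated cells. At most 0.5 times the control level were 6 of 21 endothelial genes and 1 of 14 blood transcription factors, where 1.31% of all genes were, with median log2 ratios of -0.61 and -0.67 against -0.06 over all genes. Ratios of *Yap1* cKO to control were 0.389 for *Hapln1* (0.332 to 0.454), 0.446 for *Runx1* (0.382 to 0.520), 0.474 for *Tek* (0.339 to 0.660) and 0.507 for *Gata2* (0.417 to 0.615), while *Kdr* had 0.867 (0.794 to 0.946). In other embryonic cells the same ratios were 0.461, 0.681, 0.489 and 0.370, and 0.818 for *Kdr*. Only 20 *Hapln1* and 33 *Tek* UMIs were counted there. In *Foxf1*/*Hand1* mesoderm they were 0.239, 0.540, 0.957 and 0.319, and 0.884 for *Kdr*. The median log2 ratios in other embryonic cells were -0.16 for endothelial genes and -0.44 for blood transcription factors. Within rich cells the same ratios were 0.570, 0.605, 0.664 and 0.646, and 1.19 for *Kdr*, while *Rhoj* (1.36, 1.09 to 1.69) and *Sox18* (1.87, 1.19 to 2.98) were higher in *Yap1* cKO. The *Yap1* cKO gated cells also held a larger share of *Etv2*-gated cells, 61.0% against 52.7% in control, with overlapping intervals (49.6% to 71.6% and 40.7% to 64.4%).

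Parted by sex-linked UMIs, the cells gave unlike values for this difference. In Y-bearing gated cells (39 control, 30 *Yap1* cKO), *Runx1* had 273 control and 34 *Yap1* cKO UMIs, a ratio of 0.110 (0.0746 to 0.157), and in Xist-bearing cells (33 and 47) 150 and 233 UMIs, a ratio of 0.879 (0.713 to 1.09). *Gata2* had ratios of 0.132 (0.0795 to 0.210) and 0.879 (0.674 to 1.15), *Hapln1* 0.121 (0.0852 to 0.168) and 0.810 (0.651 to 1.01), and *Tek* 0.186 (0.0908 to 0.350) and 0.793 (0.503 to 1.26). *Gata1* had 28 control and 1 *Yap1* cKO UMIs among Y-bearing cells, and 15 and 31 among Xist-bearing cells. Of 14 blood transcription factors, 8 were at most 0.5 times as high in Y-bearing cells and 0 in Xist-bearing cells, with median log2 ratios of -1.51 and 0.09. Of 21 endothelial genes the numbers were 14 and 1, with medians of -1.29 and -0.05, and of all 10676 genes 470 (4.40%) and 221 (2.07%). The mix of sets also differed. Of the Y-bearing gated cells, 12 of 39 in control and 6 of 30 in *Yap1* cKO were rich, and 20 and 23 were *Etv2*-gated. Of the Xist-bearing ones, 9 of 33 and 13 of 47 were rich, and 18 and 25 were *Etv2*-gated. Neither the part of this mix in the ratios nor the difference between Y-bearing and Xist-bearing cells was tested.

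Some genes did not share this pattern. Of 11 endothelial transcription factors, 4 were at most 0.5 times and 2 at least 2 times as high in Y-bearing cells, and 0 and 1 in Xist-bearing cells. Of all 10676 genes, 410 were at least 2 times as high in Y-bearing cells and 233 in Xist-bearing cells. *Mef2c*, a MADS box factor of heart and vessels, had a ratio of 2.69 (1.60 to 4.71) among Y-bearing cells, with an interval of 0.646 to 2.33 among Xist-bearing cells, and *Foxo1*, a forkhead factor of endothelium, 2.48 (1.72 to 3.63), with an interval of 0.667 to 1.52. *Bcl11a* was higher in both (2.17 and 1.83, with intervals above 1). *Egfl7* was lower in both (0.494 and 0.698, with intervals below 1), as was *Hhex*, a homeobox factor of blood and endothelial progenitors (0.343 and 0.609). The ratio of *Rhoj* was 0.943 for Y-bearing cells and 0.930 for Xist-bearing cells, and that of *Sox18* was 1.39 (0.779 to 2.52) and 0.740 (0.339 to 1.66). Several Hippo genes and YAP targets were lower in both, with ratios of 0.356 and 0.320 for *Amotl2*, 0.161 and 0.277 for *Ccn1*, and 0.331 and 0.304 for *Lats2*. Some Hippo genes were closer to the control level, such as *Tead2* (0.917 and 0.954) and *Stk4* (0.982 and 0.879). Of 22 Hippo genes, 5 were at most 0.5 times as high among Y-bearing cells, as were 5 among Xist-bearing cells. Their median log2 ratios were -0.54 and -0.47, against -0.10 and -0.03 over all genes. Of 11 YAP targets the numbers were 6 and 4, with medians of -1.09 and -0.57, and 1 was at least 2 times as high in Xist-bearing cells.

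Rich cells alone showed the same division for *Runx1*. The 12 Y-bearing control cells held 233 *Runx1* UMIs and the 6 Y-bearing *Yap1* cKO cells 7, a ratio of 0.0521 (0.0207 to 0.109). The 9 and 13 Xist-bearing cells held 118 and 204, a ratio of 1.2 (0.955 to 1.52). *Kdr* in the same rich cells had ratios of 0.967 (0.799 to 1.17) and 1.42 (1.17 to 1.72), while *Gata2* in the Y-bearing rich cells had 0.250 (0.143 to 0.411) and *Hapln1* 0.244 (0.171 to 0.339). The 6 cells were thus low in *Runx1*, *Gata2* and *Hapln1* and not in *Kdr*. They also differed in the gate genes, with ratios of 0.394 for *Lmo2*, 0.497 for *Fli1*, 0.631 for *Tal1* and 3.81 for *Etv2*. In the Xist-bearing rich cells the ratios of these 4 gate genes were 0.949, 0.995, 0.891 and 0.787.

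Gated cells were also distributed unevenly between Y-bearing and Xist-bearing cells. In *Yap1* cKO, 31.2% of the Y-bearing embryonic cells were gated (30 of 96, 22.2% to 41.5%) and 11.4% of the Xist-bearing ones (47 of 413, 8.48% to 14.8%). In control the shares were 14.4% (10.4% to 19.1%) and 14.8% (10.4% to 20.1%). For rich cells the *Yap1* cKO shares were 6.25% (2.33% to 13.1%) and 3.15% (1.69% to 5.32%), with overlapping intervals, and 6 of the 30 gated Y-bearing cells were rich. The Y-bearing cells of *Yap1* cKO came from at most 2 of the 3 pooled embryos, since the pool also gave Xist-bearing cells.

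**Figure D5:**
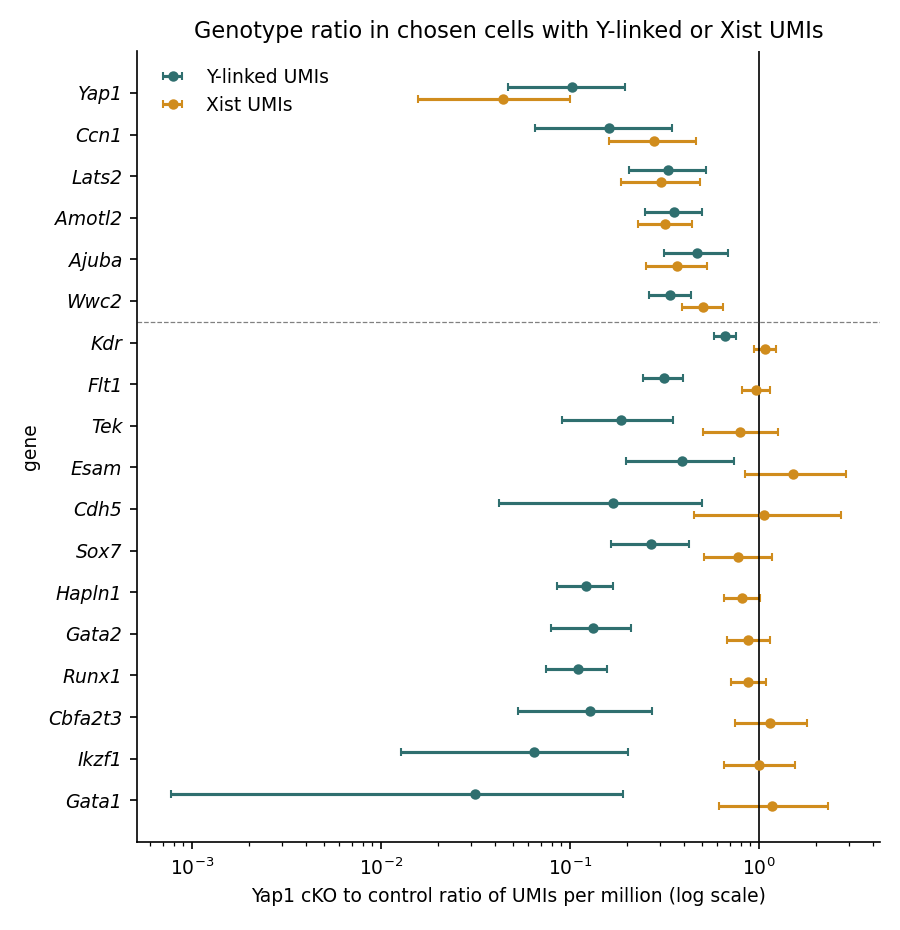
Ratio of *Yap1* cKO to control (horizontal axis, log10 scale) in gated cells of either sex-linked kind (Y-bearing, Xist-bearing), with bars for exact 95% counting intervals and a vertical line at 1. For the blood and endothelial genes drawn, such as *Runx1* (0.110 and 0.879), the interval lies wholly left of 1 in Y-bearing cells and reaches 1 in Xist-bearing cells, while for *Amotl2* and *Lats2* it lies left of 1 in both.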

How the data were processed

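Cells were dissociated from pools of E7 embryos and measured with the 10x Genomics 3' kit, 1 library per genotype. The authors aligned the reads with Cell Ranger 7.1.0 to mm10, and the deposited values are raw UMI counts of each gene in each barcode, without normalization. The authors assessed ambient RNA and doublets in their own analysis. Ambient RNA was not corrected here, so free RNA remains in the values; doublets were called with scrublet and kept, and leaving them out was an alternative. Barcodes with at least 5000 genes and at most 10% mitochondrial UMIs were kept, as the study did; the second limit removed none. No column of another series was present.

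For each population and library, a gene's UMIs were added up and divided by all UMIs to give CPM. Exact 95% intervals were used: conditional binomial for ratios, Poisson for CPM and Clopper-Pearson for shares. No test between genotypes or populations was made. The members and the gene lists were chosen with earlier results of these data known. Genes were named by list, or by rule: of those past 2-fold in both libraries with intervals past 1 and seen in at least 25% of the gated cells, the 20 highest, and the 10 lowest with at least 20 UMIs expected in gated cells and seen in at least 25% of other embryonic cells, ranked by the library nearer to 1. Between genotypes the rule took, among genes with at least 50 UMIs in gated cells, the 6 highest and 6 lowest ratios with an interval without 1, seen in at least 25% of the cells of the library where higher, with no cell holding over 25% of that library's UMIs. *Xist*, *Tsix*, Y-linked, mitochondrial and ribosomal protein genes were left out. *Sox18*, *Rhoj*, *Mef2c*, *Foxo1*, *Bcl11a*, *Egfl7* and *Hhex* between Y-bearing and Xist-bearing cells were chosen after their values were seen. Gene positions are those of GENCODE on GRCm38. Python 3.11.15 with numpy 2.4.6, scipy 1.17.1, pandas 2.3.3 and scanpy 1.11.5 (scrublet) was used. On simulated counts of 200 genes changed in 14532, 93.0% of 3-fold changes between gated and other cells were recovered, and for the genotypes 100% in 10676. Of 1.5-fold changes, 1.00% and 3.00% were called. The simulated counts held counting error alone, without spread between cells, embryos or libraries. The recovery therefore does not show how well changes are found in the real cells.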

Additional observations from a re-analysis of the deposited data

Results flagged for a closer look

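Between Y-bearing and Xist-bearing gated cells, 89 listed genes were compared, and 2 had *Yap1* cKO to control ratios with intervals on opposite sides of 1. *Myb*, a factor of definitive blood, had a ratio of 1.88 among Y-bearing cells and 0.527 among Xist-bearing cells. *Wwc1*, a Hippo regulator, had 1.47 and 0.493. The difference was not tested for either gene, and with 1 library per genotype the embryos behind it cannot be told apart.

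Barcodes below the limit of 5000 genes were left out of every comparison. Among those with at least 2000 genes, 19 of 194 control and 9 of 195 *Yap1* cKO barcodes met the same gate, with 4 and 1 of them past 20 UMIs of *Tal1*, *Lmo2* and *Fli1*. Their median depth was 10140 and 9691 UMIs.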

How the results depend on the processing

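No paired analysis was possible because each genotype has 1 library. Of the values that answer a comparison, 107 kept within 1.5 times (counts) or within their interval (shares and the *Yap1* ratio) under the alternatives and 45 did not. The share of gated cells, 14.4% in control and 15.4% in *Yap1* cKO, was 26.8% and 31.5% with a gate of 3 UMIs, 7.0% and 7.91% with 10, 10.7% and 11.9% with at least 2 gate genes seen, and 6.81% and 6.03% without *Etv2*. In *Yap1* cKO it was also 11.5% with a gate of 60 CPM, 12.1% after thinning together with a gate of 3, and 11.1% with no visceral endoderm limit. Genes higher in gated cells, 440, were 273 with a gate of 3, 222 against *Foxf1*/*Hand1* and Mesp mesoderm only, and 664 in rich cells only. Genes lower, 339, were 64 with a gate of 3, 801 with 10, 865 at 60 CPM and 702 after thinning together with a gate of 3. They were 677 without *Lmo2*, 767 without *Etv2*, 750 with no visceral endoderm limit and 142 against that mesoderm. In control alone they were 801, by mean single-cell CPM 629, with 50 UMIs expected 215 and in rich cells only 881. The *Yap1* ratio, 0.0739, was 0.130 with a gate of 10, 0.121 without *Etv2* and 0.182 in rich cells. Between genotypes, genes higher in *Yap1* cKO, 171, were 90 with a gate of 3, 99 at 60 CPM and 108 after thinning together with a gate of 3. They were 86 in Xist-bearing cells, 457 with 20 UMIs, 80 with 100 UMIs and 562 at 1.5-fold. Genes lower, 140, were 84 at 60 CPM, 72 after thinning together with a gate of 3, and 68 without *Etv2*. They were 262 with Y-bearing cells alone, 84 with Xist-bearing cells alone, 325 with 20 UMIs, 79 with 100 UMIs, 546 at 1.5-fold and 54 in rich cells only. The causes were not tested. The rich cells, the cell with leukocyte transcripts and the cells with *Prl3d1* UMIs as alternatives were chosen after seeing the data. Of 264 single-gene ratios to other embryonic cells under the alternatives 102 moved, as did 51 of 242 between genotypes. In the first set 3 changed sides of 1: *H19* had 0.351 with no visceral endoderm limit, and *Utf1* 4.02 and *Slc7a3* 2.05 against mesoderm only.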
